A study of Mus musculus with 4 samples.

Results

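The genes of the skeletal muscle contractile apparatus were followed here through dorsal skin of mice that received 3,4,5-tri-O-caffeoylquinic acid, called TCQA here, or its vehicle. They are 40 genes, taken by name from a list of muscle genes. They encode fast, slow and developmental fibre isoforms, the other thin filament and Z disc proteins, proteins of calcium release and energy supply, and myogenic transcription factors. Of these, 38 had at least 1 probe set (a group of short probes reading 1 transcript) that the platform annotation gives to a single gene, out of 17097 genes with such a probe set. Nebulin (Neb) and the fast myosin binding protein C (Mybpc2) were not named in that annotation and were not analysed here.

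Total RNA of skin was hybridised to 4 mouse arrays of a strip format. Control 1 and Control 2 came from Milli-Q water treated skin, and TCQA 1 and TCQA 2 from skin treated with 1% TCQA. All mice were male C3H, 8 weeks old at the start, shaved on the back at the resting (telogen) phase of the hair cycle, treated topically every day and sampled at day 30. Hair was plucked from the area before the skin was taken, and the sources used here do not say how deep the skin was cut. They do not say either whether an array held 1 mouse or a pool, so the p-values below measure only the spread between arrays, which may be technical. Values are log2 signals made by the authors with RMA, so a difference of 1 is 2-fold. Signals of different probe sets are not on a shared scale, and each probe set was compared only with itself across arrays.

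Striated muscle contracts when calcium, released from the sarcoplasmic reticulum through the ryanodine receptor, binds troponin and frees actin for myosin. Fast and slow fibres build the same machine from different genes, so that most of its parts come as a fast and a slow isoform. In mice a thin sheet of striated muscle, the panniculus carnosus, lies directly under the skin of the back, while the arrector pili of hair follicles and the vessel walls hold smooth muscle with isoforms of its own.

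The promoters of the 3 members with the widest gap between Control 1 and the next array, Acta1, Mylpf and Myh4, and that of a slow partner, Myl2, are shown for the 250 bases before the gene's start, from RefSeq on GRCm38.p6. Capitals mark CAGCTG, a form of the E-box that myogenic factors such as MyoD are known to bind. Acta1 lies at chr8:123894776-123895025 on the minus strand, Myh4 at chr11:67237562-67237811 on the plus strand and Mylpf at chr7:127211358-127211607 on the plus strand. Of the 2 entries of Myl2, the one that holds the motif is shown, at chr5:122092939-122093188 on the plus strand.
Acta1: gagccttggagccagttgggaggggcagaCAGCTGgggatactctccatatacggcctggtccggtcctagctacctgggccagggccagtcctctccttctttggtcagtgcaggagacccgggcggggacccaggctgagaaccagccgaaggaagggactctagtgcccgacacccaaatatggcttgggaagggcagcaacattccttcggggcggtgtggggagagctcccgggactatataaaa
Myh4: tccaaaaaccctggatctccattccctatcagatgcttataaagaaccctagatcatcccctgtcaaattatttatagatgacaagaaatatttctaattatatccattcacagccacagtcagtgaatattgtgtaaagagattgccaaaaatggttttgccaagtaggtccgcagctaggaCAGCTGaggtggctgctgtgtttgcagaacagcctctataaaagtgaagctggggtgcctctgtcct
Mylpf: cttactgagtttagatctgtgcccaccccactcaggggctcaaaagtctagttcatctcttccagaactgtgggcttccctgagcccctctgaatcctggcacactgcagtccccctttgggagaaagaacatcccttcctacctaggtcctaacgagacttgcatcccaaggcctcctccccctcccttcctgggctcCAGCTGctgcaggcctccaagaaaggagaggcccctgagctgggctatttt
Myl2: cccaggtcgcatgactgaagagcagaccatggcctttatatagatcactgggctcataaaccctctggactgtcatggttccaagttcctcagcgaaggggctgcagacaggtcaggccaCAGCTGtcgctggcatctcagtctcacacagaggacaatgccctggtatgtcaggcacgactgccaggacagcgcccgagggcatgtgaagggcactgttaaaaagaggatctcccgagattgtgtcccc

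Among the 41 promoter entries of 32 members, 16 (39.0%) held CAGCTG, which reads alike on both strands, against 13.0% of all 32851 promoters. The motif was found in 5 of 11 fast and in 5 of 12 slow isoform entries, so both kinds held it. The wider form CANNTG, which includes CAGCTG, occurred in 35 of 41 (85.4%) against 66.2% of all promoters. The MEF2 motif, searched on both strands, occurred in 5 of 41 (12.2%) against 2.92%, with 3 of 11 fast and 0 of 12 slow entries. The CArG box, the site of serum response factor, occurred in 4 of 41 (9.76%) against 1.47%. Matches describe letters in these windows and are not evidence of binding.

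Control 1 stood apart from the other arrays over the whole platform. It held 522 probe sets at a log2 value of 8 or more, against 23 to 31 on the other arrays, and it correlated with Control 2 over probe sets at r = 0.413, against 0.884 and 0.956 for the TCQA arrays. Comparisons of TCQA with Control are therefore also given without Control 1. The counts and pairs that set Control 1 against the other arrays have no value without it. Of all 17097 genes, 19.9% were at least 2-fold higher on Control 1 than on each other array, and 1.33% at least 32-fold. The members were found in these classes more often than all genes. So were the 66 ribosomal protein genes (62 at 2-fold, 35 at 32-fold) and the 8 keratinocyte markers (7 and 3). Of 6 cardiac muscle and 4 endothelial genes measured, 0 were in either class. Of 38 members, 27 (71.1%) were at least 2-fold higher on Control 1, and 17 (44.7%) at least 32-fold. In the opposite direction, 1 member (2.63%) was at least 2-fold lower there than on each other array, against 7.42% of all genes. The median over the members was 7.75 on Control 1, and 2.71, 2.77 and 2.80 on Control 2, TCQA 1 and TCQA 2. Control 1 is a single array, so these counts are a description with no test. Detection calls were not used here, and signals as low as those of many members on the other arrays may be background. Folds, gaps and ranks against them are differences of signal, and not exact ratios of transcript. In total skin RNA, the number of muscle cells, the RNA per muscle cell and a difference of the whole array cannot be told apart. These were not tested.

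**Figure D1:**
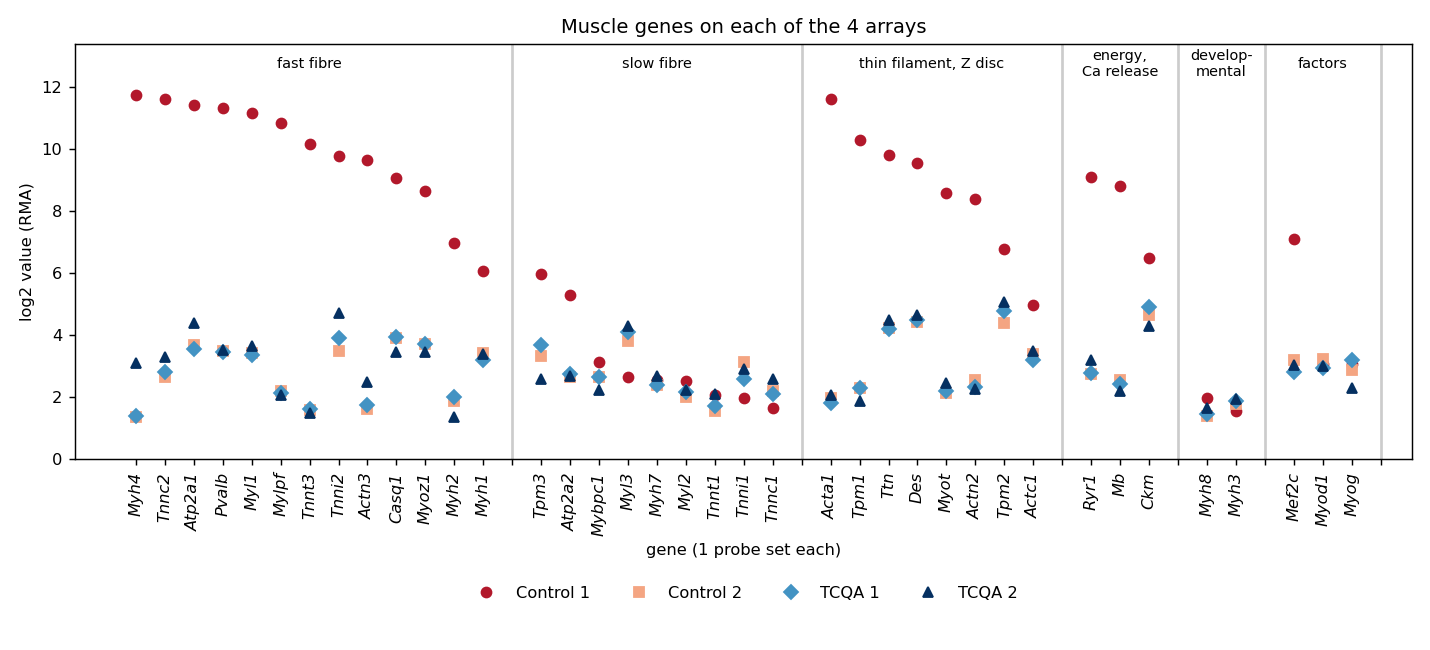
Log2 RMA value of 38 muscle genes (1 probe set each, grouped by class on the horizontal axis) on Control 1 (circles), Control 2 (squares), TCQA 1 (diamonds) and TCQA 2 (triangles). All 13 fast fibre isoforms lie higher on Control 1, while 7 of 9 slow isoforms do not reach 2-fold there.

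Results showed that the 5 widest gaps between Control 1 and the next array, over all 17097 genes, belonged to members of the contractile apparatus (Acta1, Mylpf, Myh4, Tnnt3 and Tnnc2, in that order). This ranking holds for the probe sets used, whose choice includes Control 1. The other probe set of Myh4 had a gap of 4.63, while Acta1, Mylpf, Tnnt3 and Tnnc2 have 1 probe set each. Of the 13 measured fast isoforms, 13 were at least 2-fold and 10 at least 32-fold higher on Control 1, against 19.9% and 1.33% of all genes. Myh4, the heavy chain of type IIb fibres, read 11.75 in Control 1 but 1.36 in Control 2, 1.40 in TCQA 1 and 3.12 in TCQA 2. The array next to Control 1 was TCQA 2, at a distance of 8.63, and Control 2 and TCQA 1 lay side by side. Myh2, the heavy chain of type IIa fibres, read 6.99 in Control 1 but 1.87, 2.01 and 1.37 in the others, and its gap of 4.98 fell just short of 32-fold. Myh1, the heavy chain of type IIx fibres, read 6.07 in Control 1 but 3.43, 3.19 and 3.39 in the others. The light chains that support the lever arm of the fast motor followed Myh4. For Mylpf, the regulatory light chain, values were 10.85 in Control 1 and 2.21, 2.15 and 2.08 elsewhere, a gap of 8.64. For Myl1, the essential light chain, they were 11.16 in Control 1 and 3.44, 3.37 and 3.67 elsewhere. The other arrays differed among themselves by 0.13 for Mylpf and 0.30 for Myl1.

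The fast troponin complex, the calcium switch of the thin filament, showed the same split in each of its 3 subunits. Tnnt3, which anchors the complex to tropomyosin, measured 10.17 in Control 1 against 1.58 in Control 2, 1.62 in TCQA 1 and 1.50 in TCQA 2. Tnnc2, which binds calcium, measured 11.64 against 2.67, 2.82 and 3.29. Tnni2, which holds actin in the blocked state, measured 9.77 against 3.51, 3.92 and 4.73. Control 1 was above the next array by 8.54 for Tnnt3 and 8.35 for Tnnc2. For Tnni2 and Tnnc2 the next array was TCQA 2, and for Tnnt3 the other 3 arrays lay within 0.12.

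In the thin filament and Z disc, Acta1 had the widest gap of all 17097 genes. Acta1, the actin of adult skeletal muscle, measured 11.63 in Control 1 against 1.98 in Control 2, 1.81 in TCQA 1 and 2.07 in TCQA 2, a gap of 9.56. Actc1, the cardiac actin that is also made in developing skeletal muscle, measured 4.99 against 3.41, 3.20 and 3.51, a gap of 1.48. The tropomyosins, which lie along actin and cover its myosin sites, differed too. Tpm1 stood at 10.29 in Control 1 and at 2.29, 2.29 and 1.88 in the others, while Tpm2 stood at 6.79 in Control 1 and at 4.41, 4.78 and 5.09 in the others. Among the Z disc proteins, the actinins crosslink actin, Actn3 being limited to fast fibres. Actn3 stood at 9.67 in Control 1 and at 1.63, 1.75 and 2.48 in the others. Actn2 stood at 8.39 and at 2.56, 2.32 and 2.26. Myot (myotilin, which binds the actinins) stood at 8.60 and at 2.13, 2.20 and 2.45. Myoz1, the calsarcin of fast fibres that tethers calcineurin, stood at 8.65 and at 3.71, 3.71 and 3.47. Ttn (titin, the elastic filament between Z disc and M band) stood at 9.81 and at 4.22, 4.21 and 4.49. Des (desmin, the intermediate filament that ties neighbouring Z discs together) stood at 9.56 and at 4.42, 4.48 and 4.67. The thin filament and Z disc class leaves the fast-only Actn3 and Myoz1 to the fast class. All 8 of its measured members were at least 2-fold higher on Control 1, and 5 of them at least 32-fold. The shares of all genes were 19.9% and 1.33%.

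Calcium handling and energy genes behaved alike. Ryr1, the calcium release channel of the sarcoplasmic reticulum, measured 9.12 in Control 1 against 2.75, 2.78 and 3.20 in the others. Casq1, which stores calcium in the reticulum of fast fibres, measured 9.07 against 3.91, 3.93 and 3.47. Atp2a1, the SERCA1 pump that returns calcium in fast fibres, measured 11.43 against 3.68, 3.57 and 4.39. Pvalb, the parvalbumin that buffers calcium in fast fibres, measured 11.32 against 3.50, 3.47 and 3.53. Each of these 4 was over 32-fold higher on Control 1, and for Pvalb the other arrays spanned only 0.06. Mb (myoglobin), which stores oxygen, measured 8.81 against 2.57, 2.43 and 2.19. Ckm, the creatine kinase of muscle that buffers ATP, measured 6.48 against 4.65, 4.92 and 4.30, the smallest of these gaps at 1.56.

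**Figure D2:**
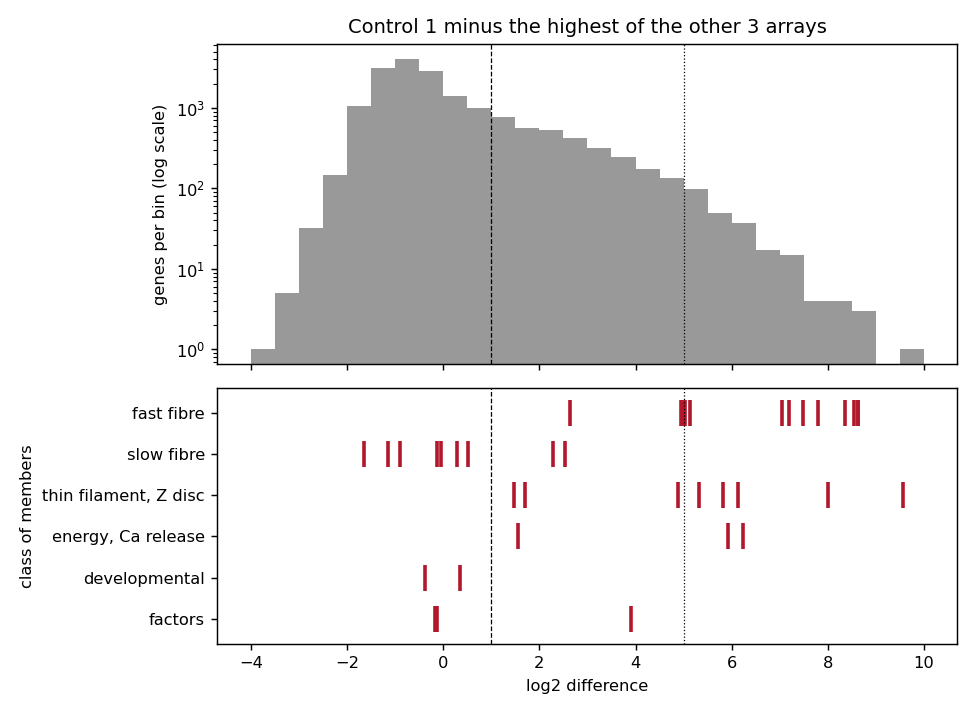
Control 1 minus the highest of the other 3 arrays on the log2 scale (horizontal axis). The upper panel counts all 17097 genes in bins of 0.5 on a log axis, the lower panel marks each of the 38 members by class, and the lines stand at 2-fold (dashed) and 32-fold (dotted). The members reach from -1.64 (Myl3) to 9.56 (Acta1), and those of the fast class from 2.64 to 8.64.

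The slow isoforms did not follow the fast ones. Myh7, the heavy chain of slow fibres and of the heart, measured 2.57 in Control 1 against 2.39 in Control 2, 2.41 in TCQA 1 and 2.70 in TCQA 2. Myl2, the slow regulatory light chain, measured 2.52 against 2.01, 2.18 and 2.23. Myl3, the slow essential light chain, was the one member at least 2-fold lower on Control 1, at 2.64 against 3.82, 4.10 and 4.29. Its probe set carries a suffix of probes that may match related transcripts, as do those used for Myh7 and for the fast gene Tnni2. The slow troponins showed no such gap. Tnnt1 measured 2.08 against 1.55, 1.73 and 2.12, and TCQA 2 was level with Control 1. Tnni1 measured 1.98 in Control 1, below 3.14, 2.60 and 2.90 in the others, and Tnnc1 measured 1.66, below 2.20, 2.11 and 2.58. Mybpc1, the slow myosin binding protein C, measured 3.15 against 2.64, 2.64 and 2.23. Of the 9 slow isoforms, 2, Atp2a2 and Tpm3, were at least 2-fold higher on Control 1, near the share of all genes (19.9%). Atp2a2, the SERCA2 pump of slow fibres, heart and many other cells, measured 5.30 against 2.67, 2.75 and 2.70. Tpm3, the slow tropomyosin that has non-muscle forms, measured 5.97 against 3.34, 3.68 and 2.58. The median difference between Control 1 and Control 2 was 7.75 over 13 fast isoforms and 0.52 over 9 slow isoforms, against -0.29 over all genes. A further quantile normalization left the fast median at 6.02 and the slow median at 0.55.

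Within each matched pair the difference between the control arrays was larger for the fast gene. Myh4 differed by 10.39 and its slow partner Myh7 by 0.18. Mylpf differed by 8.64 and Myl2 by 0.52, and Myl1 differed by 7.72 while Myl3 differed by -1.17. In the troponins, Tnnt3 differed by 8.59 and Tnnt1 by 0.53, Tnni2 by 6.26 and Tnni1 by -1.16, and Tnnc2 by 8.97 and Tnnc1 by -0.53. The calcium pumps were closest, with 7.75 for Atp2a1 and 2.62 for Atp2a2. The fast gene exceeded the slow one in 7 of 7 measured pairs by 5.12 to 10.21, and after quantile normalization by 4.50 to 10.6. Every probe set of a fast gene lay above every probe set of its slow partner in all 7 pairs. For Mylpf with Myl2, Tnnt3 with Tnnt1 and Tnnc2 with Tnnc1 this repeats the values above, as each gene has 1 probe set. Among fast heavy chains outside the pairs, a probe set of Myh1 differed by -1.19, below those of Myh7 at -0.01 and 0.18. Most slow partners read low on every array, Myh7, Myl2, Tnnt1, Tnni1 and Tnnc1 between 1.55 and 3.14, so a small difference there may be that of background and the sizes of these gaps are not exact. These are differences between 1 array and another of the same group and carry no test.

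**Figure D3:**
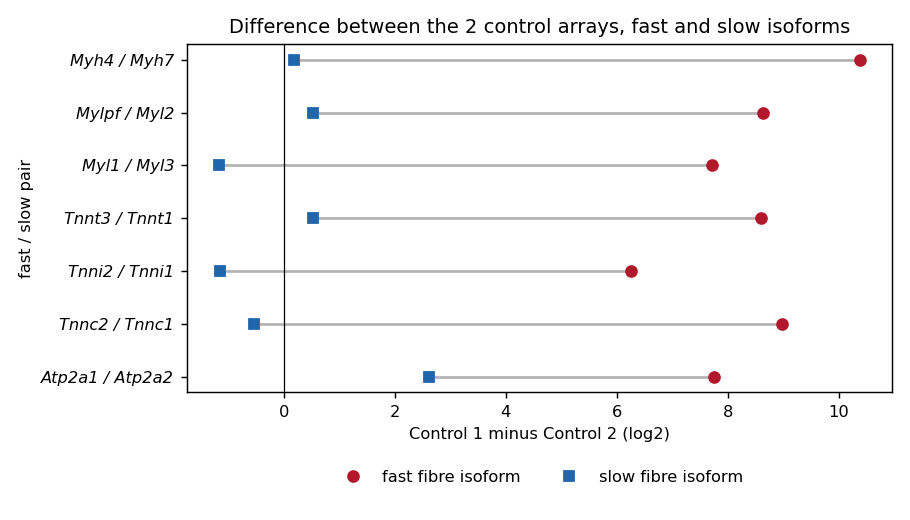
Control 1 minus Control 2 on the log2 scale for the fast isoform (circles) and the slow isoform (squares) of 7 matched pairs. The fast isoforms lie between 6.26 and 10.39 and the slow isoforms between -1.17 and 2.62.

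The heavy chains also differed by their place in the genome. Myh3 (embryonic), Myh2, Myh1, Myh4 and Myh8 (perinatal) follow each other in that order on chromosome 11 with 0 protein-coding genes between neighbours in the RefSeq annotation, while Myh7 is on chromosome 14. In this cluster the adult genes Myh2, Myh1 and Myh4 were at least 2-fold higher on Control 1, and the developmental genes at the ends were not. Myh3 measured 1.56 in Control 1 against 1.79, 1.89 and 1.95 in the others, and Myh8 measured 1.99 against 1.41, 1.46 and 1.64. Between the control arrays Myh3 differed by -0.23 and Myh8 by 0.57. Heavy chain genes are close in sequence, so probe sets of one may also read another.

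The transcription factors of the muscle lineage were split. Mef2c, which works with the myogenic factors and is also used by other lineages, measured 7.11 in Control 1 against 3.20, 2.83 and 3.03 in the others. Myod1, the factor of determined myoblasts, measured 3.06 against 3.23, 2.94 and 3.0. Myog (myogenin), the factor of differentiating myoblasts, measured 3.06 against 2.88, 3.20 and 2.31. For both of these Control 1 lay within the range of the other arrays.

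Other probe sets of the same genes were set beside those used, since the probe set with the highest mean over the 4 arrays can be chosen because of Control 1 alone. The 38 members have 66 single-gene probe sets, of which 43 were at least 2-fold higher on Control 1, 26 at least 32-fold higher and 3 at least 2-fold lower. Over all 28898 single-gene probe sets these counts were 5481, 381 and 1591. Some genes understated the split through the probe set used. Myh1 reached 9.79 in Control 1 against 1.63, 1.55 and 1.85 with another probe set, which carries the suffix of probes that may match related transcripts. Another probe set of Ckm reached 10.98 against 2.71, 2.42 and 2.53, and one of Tnni2 reached 10.56 against 1.47, 1.60 and 1.92. The 3 other probe sets of Tpm2 differed between the control arrays by 6.70 to 7.20, and those of Ttn by 6.85 and 7.24. Other genes showed the reverse. The other probe sets of Tpm1 differed between the control arrays by 2.02 and 0.14, against 8.01 for the one used. A further probe set of Mb measured 2.52 in Control 1 against 3.57, 3.62 and 3.57, one of Des 2.67 against 3.70, 3.24 and 3.05, and one of Myh1 2.69 against 3.88, 3.68 and 3.26. The probe sets of Atp2a2 that were not used differed between the control arrays by -0.13 and -0.22, and those of Tpm3 by -0.25 to 0.51, so the 2-fold difference of both rested on 1 probe set each. Among the slow isoforms, 2 of 17 probe sets were at least 2-fold higher on Control 1, against 19 of 20 among the fast isoforms. Both other probe sets of Myl3 also read lowest in Control 1, at 1.36 against 1.65 to 1.77 and at 1.79 against 3.10 to 3.35.

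**Figure D4:**
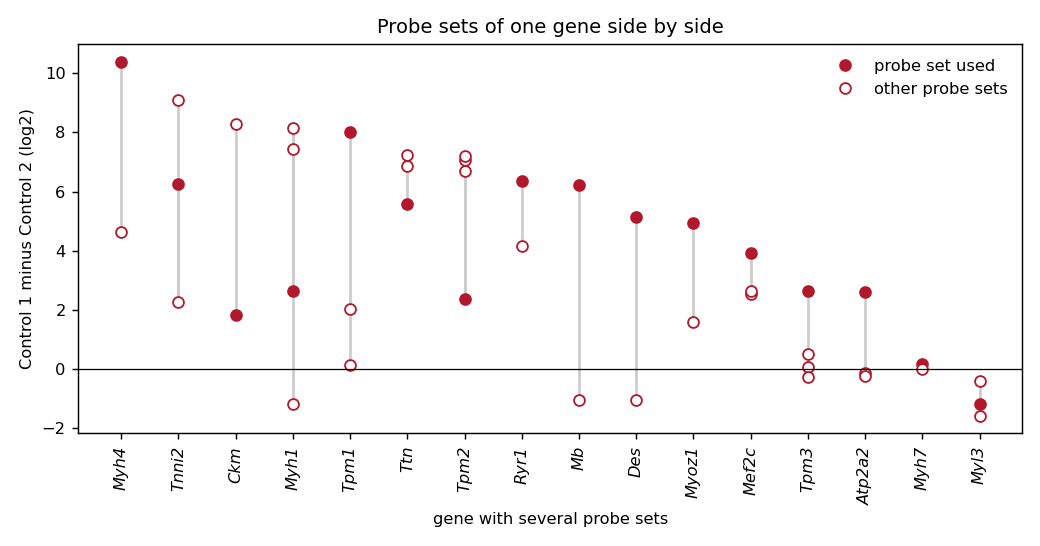
Control 1 minus Control 2 on the log2 scale for each single-gene probe set of the 16 members with several (filled circles, the probe set used, open circles, the others, joined by a line per gene). Myh1, Mb and Des hold probe sets on both sides of 0, as do Tpm3, Atp2a2 and Myh7 closer to it, and those of Myl3 lie below 0.

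The comparison the study was designed for is TCQA against Control. No member passed it. Of 38 members, 0 had an adjusted p under 0.05 by limma (the smallest was 0.923), as was the case for 0.0% of all 45037 probe sets, and 0 of 38 had an unadjusted p under 0.05, by limma or by the unmoderated test, against 141 of all probe sets by limma. The study's methods name 2-fold and p at or under 0.05. With both, before adjustment and by limma, 0 members were lower and 0 were higher with TCQA, against 0.122% and 0.135% of all probe sets. The legends of the study's tables call expression significant from a 2-fold change. By fold change alone many members would be lower, Acta1 (-4.87) among them, and none higher, as the highest log2 fold change was 0.97. The differences were nonetheless wide. The median log2 fold change (TCQA minus Control) over the members was -2.37, with 32 negative and 6 positive, and without Control 1 it was 0.03, with 19 negative and 19 positive. Quantile normalization gave -1.11, and the probe set highest on the arrays other than Control 1 gave -1.45. With 2 arrays a side, the smallest p that exact permutation of the labels allows is 0.333.

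The 10 members with the widest fold changes had large errors. Acta1 had a mean of 6.80 ± 6.82 (SD, n = 2) in Control and of 1.94 ± 0.19 (SD, n = 2) with TCQA, a log2 fold change of -4.87. Its SE was 3.23 and its adjusted p by limma 0.923. Myh4 had 6.56 ± 7.34 in Control and 2.26 ± 1.22 with TCQA, a log2 fold change of -4.30 with an SE of 3.52. The log2 fold changes of the other 8 were -4.42 for Mylpf, -4.31 for Tnnt3, -4.21 for Tpm1, -4.10 for Tnnc2, -3.91 for Pvalb, -3.78 for Myl1, -3.58 for Atp2a1 and -3.54 for Actn3, with SEs between 2.60 for Myl1 and 3.01 for Tnnc2. Each of the 10 had an adjusted p of 0.923 by limma. Tpm1 gave -0.21 with the probe set highest on the arrays other than Control 1 and -1.81 with the mean of its 3 probe sets, and Myh4 gave -2.38 with the former choice. For all 10 the SD within Control exceeded the difference between the groups. Without Control 2 instead, 27 members were lower and 1, Myl3 (1.55, adjusted p = 0.0184), was higher at an adjusted p under 0.05 by limma, where 23.4% of all probe sets passed. That fit leaves 1 control array, which is assumed to vary like the TCQA arrays, and the wide spread between the control arrays does not enter it.

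Whether the groups overlapped was read for each member. Both TCQA arrays lay below both Control arrays for 8 of 38 members (21.1%), against 13.6% of all genes. These were Myh1, Mylpf, Tpm1, Actn2, Myoz1, Mb, Myod1 and Mef2c. For 2 members (5.26%), Myh3 and Myl3, both TCQA arrays lay above both Control arrays, against 16.0% of all genes. For the other 28 members, Acta1, Myh4 and Tnnc2 among them, the groups overlapped. In the 8 members with lower TCQA arrays, the TCQA mean minus Control 2 lay between -0.28 for Mef2c and -0.10 for Mylpf. In 7 of them Control 1 lay much farther above than Control 2, while for Myod1 the TCQA arrays lay closer to Control 1 (3.06) than to Control 2 (3.23).

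Control 2, TCQA 1 and TCQA 2 spanned over 0.5 for 12 of 38 members (31.6%), against 37.2% of all genes. TCQA 2 was at least 0.5 above both Control 2 and TCQA 1 for 4 of 38 members (10.5%), against 5.72% of all genes. These 4 were Myh4, Tnni2, Actn3 and Atp2a1, all of the fast class, and Tnnc2 was just outside at 3.29 against 2.82 and 2.67. In the opposite direction TCQA 2 was at least 0.5 below both for 2 members (5.26%), against 8.74% of all genes. These were Tpm3 at 2.58 against 3.34 and 3.68, and Myog at 2.31 against 2.88 and 3.20. Myh4 was the widest, at 3.12 on TCQA 2 against 1.40 and 1.36. The other probe set of Myh4 did not show this, at 2.73 on TCQA 2 against 2.65 and 2.75. The other probe sets of Tnni2 stood above both arrays by only 0.32 and 0.15. Outside the fast class, a probe set of Tpm2 that was not used measured 3.64 on TCQA 2 against 2.41 and 2.34. Like the one used for Tnni2, it carries the suffix of probes that may match related transcripts. Over all 66 probe sets of members, 6 were at least 0.5 above both arrays, 5 of them of fast genes, against 1772 of all 28898. Other fast isoforms went the other way, as with Myh2 at 1.37 on TCQA 2 against 2.01 and 1.87, and Casq1 at 3.47 against 3.93 and 3.91. Over the 13 fast isoforms the difference of the TCQA mean from Control 2 ranged from -0.21 to 0.90, and over the 9 slow isoforms from -0.39 to 0.38, with no replicate of Control left to test it.

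**Figure D5:**
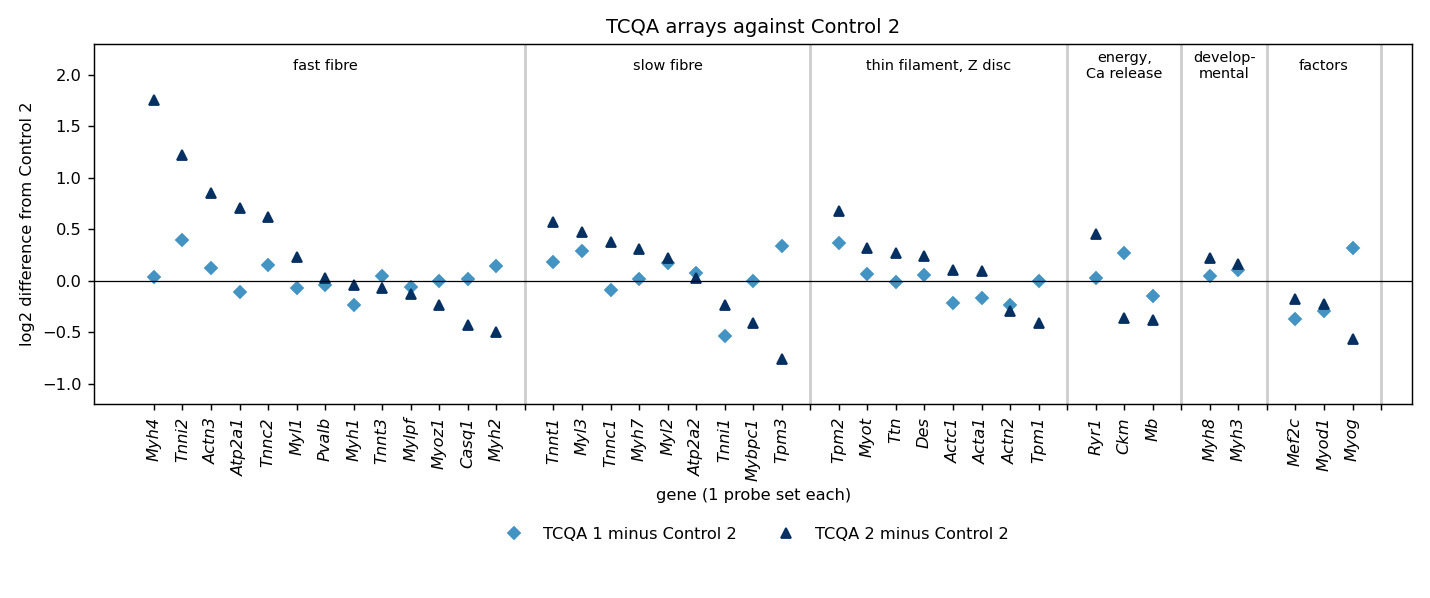
TCQA 1 minus Control 2 (diamonds) and TCQA 2 minus Control 2 (triangles) on the log2 scale for 38 muscle genes by class. On TCQA 2 the fast genes Myh4, Tnni2, Actn3, Atp2a1 and Tnnc2 lie highest in their class, while Myh2 and Casq1 lie below 0.

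Further muscle genes outside the 40 were read from 4 lists of 66 genes, of which 58 were measured. Of these, 41 were at least 2-fold higher on Control 1, against 19.9% of all genes. At 32-fold there were 11, against 1.33% of all genes. Without Control 1, the median log2 fold change (TCQA minus Control) over the 58 was 0.01, with 28 negative and 30 positive. The list of energy supply was the most uniform, with 12 of 12 at least 2-fold higher and 7 at least 32-fold. In it Eno3, the enolase of muscle, measured 9.94 in Control 1 against 2.46, 2.62 and 2.79, and Aldoa, the glycolytic aldolase, 11.33 against 3.93, 3.79 and 4.04. Of further Z disc, M band and thin filament genes, 19 of 22 were at least 2-fold higher. Among these, Klhl41, which stabilises nebulin, measured 8.84 in Control 1 against 1.64, 2.03 and 1.79, and Fhl1, a LIM protein of muscle, 9.73 against 3.13, 2.71 and 3.91. Genes of excitation and calcium, and those of satellite cells and myogenic factors, were mixed, with 7 of 16 and 3 of 8 at least 2-fold higher and 0 at 32-fold in either. The first held Trdn (triadin, a partner of Ryr1) at 8.77 against 3.45, 3.83 and 4.80 and Srl (sarcalumenin, a calcium binder of the reticulum) at 8.41 against 3.55, 3.75 and 3.31. The second held Myf6, the myogenic factor of mature fibres, at 5.88 against 1.95, 2.20 and 2.26, and Mef2a at 6.35 against 2.78, 2.52 and 2.16.

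Genes of some other cells, though not of all those listed, were higher on Control 1 as well. The shares of all genes were 19.9% at 2-fold and 1.33% at 32-fold. The label names skin, and of 8 keratinocyte markers 7 were at least 2-fold higher on Control 1 and 3 at least 32-fold, with a median of 8.23 there and of 2.40, 2.20 and 2.85 on the other arrays. Perp, a desmosome protein of stratified epithelia, measured 9.34 in Control 1 against 1.95, 1.58 and 1.94, and the medians of all probe sets on those arrays were 2.55, 2.54 and 2.49. Krt5, a keratin of the basal layer, measured 9.83 in Control 1 against 4.91, 5.02 and 4.52, and Krt1, a keratin of the upper layers, 8.16 against 3.63, 3.43 and 3.64. Dsp (desmoplakin) measured 8.29 against 1.93, 2.02 and 5.61. Lor did not reach 2-fold, at 1.58 against 1.26, 1.35 and 1.33. Of 66 ribosomal protein genes, 62 were at least 2-fold higher on Control 1 and 35 at least 32-fold, with medians of 9.37, 3.40, 3.69 and 3.26. The count at 2-fold was 4 of 6 for dermal fibroblasts, 3 of 6 for adipocytes and 1 of 4 for immune cells, the last near the share of all genes. For smooth muscle it was 4 of 7, led by Acta2, the actin of smooth muscle, at 8.05 against 3.51, 3.43 and 3.05, with 0 at 32-fold. For cardiac muscle it was 0 of 6, with Mybpc3 at 2.36 against 3.84, 3.75 and 3.64, and for endothelium 0 of 4. Without Control 1, the median of TCQA minus Control was -0.12 for the keratinocyte markers, -0.10 for the ribosomal protein genes and -0.04 for smooth muscle, against -0.03 for all genes. RMA values have no 0 that marks absence, so a transcript was not called absent on any array. The part of the array-wide difference in the muscle genes was not tested.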

How the data were processed

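RNA of dorsal skin was hybridised to 4 arrays of the Affymetrix PM strip format for mouse, 2 per group, grouped by the sample titles. The values deposited by the authors are log2 signals from RMA, which corrects background, normalizes probes and summarises them to probe sets. Expression Console and Transcriptome Analysis Console are named in the submitters' processing notes. The median over all probe sets differed between arrays (2.30 on Control 1, 2.49 to 2.55 on the others), and whether they were normalized together was not settled here. Scanner files and detection calls were not used here, and no depth applies to arrays, whose number limits the precision.

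Of 45141 probe sets, 104 Affymetrix controls were left out. Of the remaining 45037, 28898 name 1 gene in the platform annotation, 551 name several and 15588 are not listed. Of the single-gene probe sets, 28689 matched RefSeq (GRCm38.p6), and 0 symbols changed. For each gene the probe set with the highest mean over the 4 arrays was used.

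TCQA was compared with Control by a two-sided limma test (version 3.58.1, R 4.3.3, moderated by eBayes) with 2 residual degrees of freedom and Benjamini-Hochberg adjustment over the 45037 probe sets, and the step was tested on simulated data. The simulated arrays took their means and spread from Control 2, TCQA 1 and TCQA 2. They held no array that stood apart as Control 1 did, so that case was not tested. SE and adjusted p are given for the 10 members with the largest absolute log2 fold change, and further lists by genes among the 2 with the largest difference between the control arrays. Krt5, Krt1 and Lor were named in addition. Control 1 against the other arrays, and fast against slow isoforms, were described without a test. Alternatives were quantile normalization, centring on the median, no dim probe sets, other choices of probe set, limma trend and robust options, an unmoderated test (the analysis of variance of the methods), a replicate block, and leaving out each array. The members and lists were chosen with earlier results of these data known.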

Additional observations from a re-analysis of the deposited data

How the results depend on the processing

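The number of members at an adjusted p under 0.05 stayed at 0 under quantile normalization, centring, the filter on dim probe sets (32 members left), the other choices of probe set, limma's trend and robust options, the unmoderated test and the replicate block. When each array was left out in turn, that number ranged from 0 to 28, the members lower by 2-fold with p at or under 0.05 before adjustment from 0 to 27, those higher from 0 to 1, and the median log2 fold change from -5.03 (without Control 2) to 0.03 (without Control 1). Over the same 4 fits the log2 fold change ranged from -9.49 to 0.90 for Myh4, from -8.58 to 0.39 for Tnnc2, from -7.64 to 0.08 for Myl1, from -7.45 to 0.30 for Atp2a1 and from -7.56 to 0.49 for Actn3, the upper end being without Control 1. Without Control 1 the log2 fold changes of the other 5 also lay close to 0, at -0.04 for Acta1, -0.10 for Mylpf, -0.01 for Tnnt3 and -0.20 for Tpm1, with Pvalb at 0 to 2 decimals. Without Control 2, the lone control array is assumed to vary like the TCQA arrays. The median of Control 1 minus Control 2 was 6.02 for the fast and 0.55 for the slow isoforms after quantile normalization, and 8.01 and 0.77 after centring. After quantile normalization 24 of 38 members (63.2%) were at least 2-fold higher on Control 1, against 14.1% of all genes, and under the other settings 24 to 27. The replicate numbers were not shown to pair the arrays, since Control 1 minus Control 2 correlated with TCQA 1 minus TCQA 2 at -0.124 over probe sets. With the replicate block the 10 named members had an adjusted p of 1.0 by limma. A crossed pairing, chosen after seeing the data, also gave 0 members past the test. The cause of each change was not tested.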
